A study of Mus musculus with 6 samples.

Results

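Cd79a, Cd79b, Vpreb3, Blnk, Fcrla, Mzb1, Pou2af1, Derl3, Tnfrsf17 and Jchain, which are 10 of the 54532 genes in the expression table, are B lineage and plasma cell genes outside the immunoglobulin loci. They were chosen by their values in WT and progranulin (PGRN) KO neutrophils, so their differences between the genotypes are described here without a test. RNA sequencing was performed on bone marrow neutrophils of C57BL/6J mice, with 3 cultures of WT cells and 3 of PGRN KO cells. All 6 cultures held the same number of cells per tube in medium with 10% fetal bovine serum, were kept for 2 h and were then challenged with live Candida albicans for 6 h, and the comparison asked which transcripts differ between the genotypes in infected neutrophils. Neutrophils were taken from tibias and femurs with magnetic beads against Ly-6G. The paper's methods also speak of splenic neutrophils, and they report that most of the isolated cells carried Ly-6G. The KO mice were purchased from a different supplier than the WT mice, so genotype and source cannot be told apart. The mice were matched for sex and age, and neither their ages nor the number of mice behind each culture is given in the sources used here. P-values therefore measure only the spread between these cultures, which may be technical, and no uninfected culture was part of the series.

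B cells carry an antibody on their surface as part of the B cell receptor, whose signal is passed into the cell by the paired chains encoded by Cd79a and Cd79b. When a B cell becomes a plasma cell, it shuts down much of the receptor program and turns its endoplasmic reticulum over to the folding, assembly and secretion of antibody. Bone marrow holds both ends of this lineage, B cell precursors and long-lived plasma cells, beside a far larger number of neutrophils. In a bulk library, more or fewer cells of a type and more or less RNA per cell cannot be told apart.

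The Grn transcript was first examined as a check of the labels. Grn was at 168, 161 and 166 FPKM in WT and at 0.242, 0.206 and 0.747 in PGRN KO, and its log2 fold change was -6.91 (adjusted p = 1.05e-05). FPKM counts the fragments on a transcript relative to its length and to the size of the library, so that genes can be compared with each other on it. Between 17087344 and 18821091 fragments on genes were recovered per library, with similar depth in both genotypes. Neutrophil genes dominated every library, with the 14 neutrophil markers summing to 72575 to 77144 FPKM in WT and to 73922 to 83931 in PGRN KO.

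Of the 10 genes, 8 had a promoter window in the RefSeq table (GRCm38.p6), and 4 of these held a motif searched for. The 250 bases before the start are shown for 3 of the 4. The motifs searched on both strands were the octamer ATGCAAAT, bound by the POU factors with which the Pou2af1 product acts, the unfolded protein response element TGACGTGG, the ER stress response element and the EBF motif. Capitals mark the match, and each sequence is given from 5′ to 3′ on the strand of its gene.
Derl3, chr10:75893148-75893397, plus strand: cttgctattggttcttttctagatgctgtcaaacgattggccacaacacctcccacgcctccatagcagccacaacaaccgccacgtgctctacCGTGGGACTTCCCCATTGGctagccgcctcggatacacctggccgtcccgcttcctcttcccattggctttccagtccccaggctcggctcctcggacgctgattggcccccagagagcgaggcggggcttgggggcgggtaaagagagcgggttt
Pou2af1, chr9:51213440-51213689, plus strand: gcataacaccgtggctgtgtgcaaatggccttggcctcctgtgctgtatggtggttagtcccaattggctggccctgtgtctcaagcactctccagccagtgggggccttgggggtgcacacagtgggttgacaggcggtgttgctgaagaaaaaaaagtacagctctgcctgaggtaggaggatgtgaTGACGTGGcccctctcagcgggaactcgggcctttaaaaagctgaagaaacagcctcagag
Vpreb3, chr10:75948050-75948299, plus strand: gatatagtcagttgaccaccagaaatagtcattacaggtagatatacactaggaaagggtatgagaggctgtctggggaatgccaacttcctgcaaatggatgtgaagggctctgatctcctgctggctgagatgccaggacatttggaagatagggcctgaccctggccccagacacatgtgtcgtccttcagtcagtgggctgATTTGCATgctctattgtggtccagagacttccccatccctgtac
The match before Derl3 is an ER stress response element on the reverse strand, ending 137 bases before the start, and 0.119% of the 32851 promoter windows searched held that element. The match before Pou2af1 is an unfolded protein response element, 53 bases before the start, present in 0.676% of windows. The match before Vpreb3 is an octamer read on the reverse strand (ATTTGCAT), 37 bases before the start, present in 1.74% of windows. RefSeq starts Vpreb3 and Blnk inside the longer spans that the expression table gives for them. The Blnk window, which is not shown, also held a reverse octamer, 122 bases before the RefSeq start. The EBF motif was searched for as a single pattern of 10 bases, found in 0.904% of windows and in none of the 8. Sites that depart from that pattern were not searched for, so whether the 8 windows hold other EBF sites was not tested. A match is a description of the letters in the window and not evidence of binding.

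Levels of 9 of the 10 genes were higher in every PGRN KO culture than in every WT culture, against 18.1% of the 14807 genes tested, a count that follows from how the genes were chosen. Among the 8 genes detected in WT, the largest ratios of mean FPKM were 5.88 for Pou2af1, 4.88 for Derl3 and 4.74 for Mzb1, and the most abundant of the 10, Jchain, had a ratio of 3.27. The B cell receptor gene Cd79b had a ratio of 4.29 and its partner Cd79a of 1.79. Fcrla was the gene whose groups overlapped. The median ratio was 3.78 over the 8 genes detected in WT. It was 3.50 over all 10, with a floor of 3 fragments put for WT in Vpreb3 and Tnfrsf17. The median difference in mean log2(FPKM + 1) was 0.65 over the 10 genes, also with that floor, and 0.0026 over all genes tested. All 10 passed the filter of a mean of at least 0.1 FPKM, but Vpreb3 and Tnfrsf17 did so through PGRN KO alone.

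**Figure D1:**
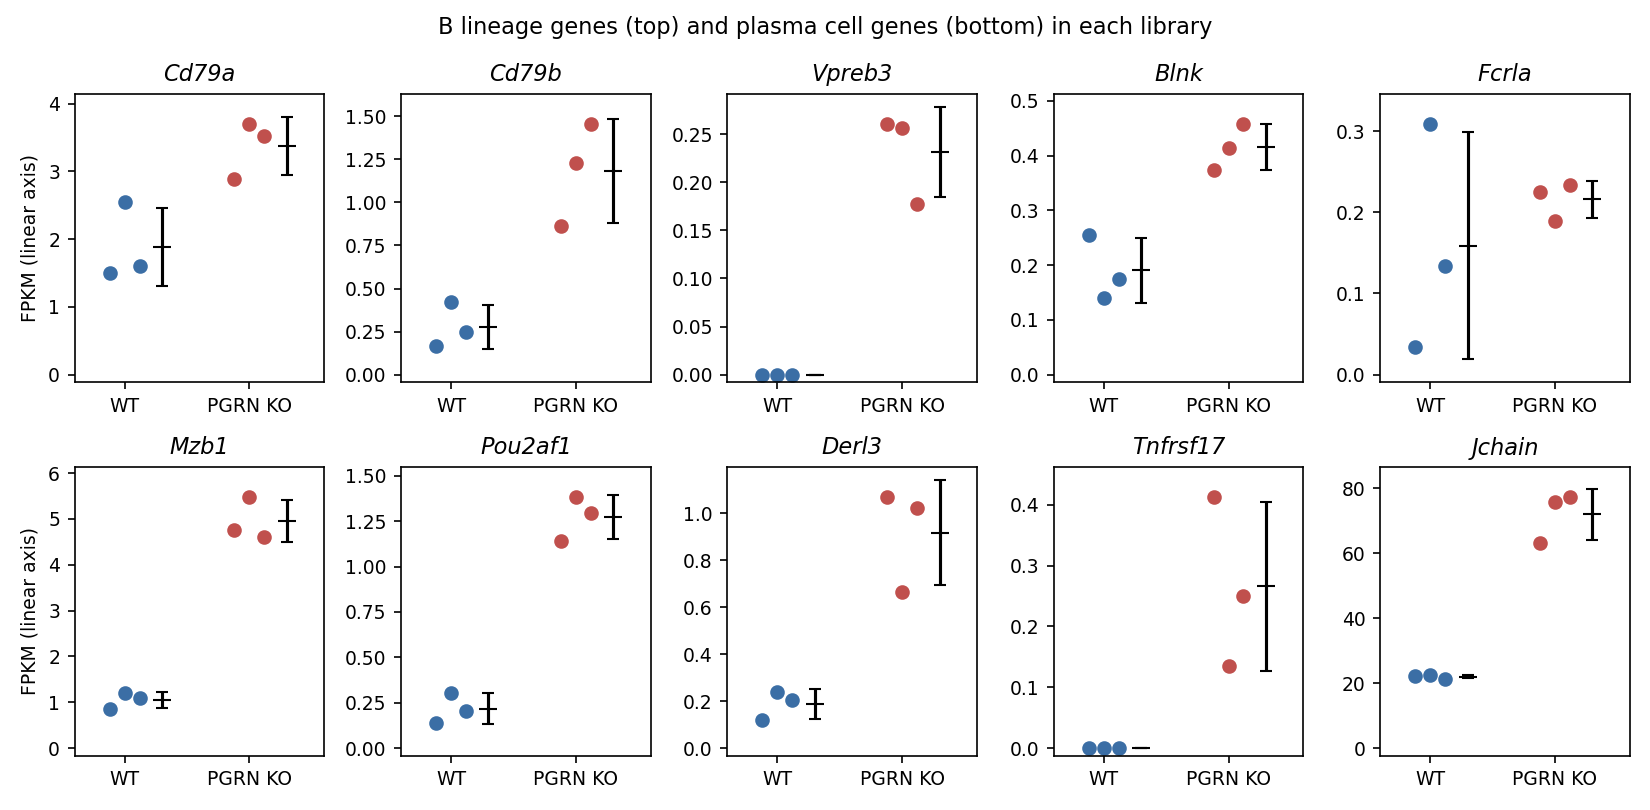
FPKM of each gene in each library, with WT in blue, PGRN KO in red and the black bar giving the mean ± SD of 3 cultures beside each group; the vertical axis is linear and its range differs between panels. The PGRN KO points lie above the WT points in every panel but that of Fcrla, where the highest point, 0.309 FPKM, is a WT culture.

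Cd79a and Cd79b encode the signalling chains of the B cell receptor. Cd79a (ENSMUSG00000003379, GRCm38 chr7:24897381-24902197, plus strand) was at 1.50, 2.55 and 1.60 FPKM in WT and at 2.88, 3.70 and 3.53 in PGRN KO. The groups did not overlap, but they came close, since the lowest PGRN KO value was 1.13 times the highest WT value. The means were 1.88 ± 0.581 FPKM in WT and 3.37 ± 0.431 in PGRN KO (mean ± SD of 3 cultures, here and throughout), and they rest on 139 and 274 fragments. Cd79b (ENSMUSG00000040592, chr11:106311341-106314762, minus strand) was at 0.165, 0.419 and 0.245 FPKM in WT and at 0.861, 1.23 and 1.46 in PGRN KO. Every PGRN KO culture was at least 2.06 times the highest WT culture. The means were 0.276 ± 0.130 and 1.18 ± 0.301 FPKM, from 20 and 95 fragments. Although their products form a pair, Cd79a was the more abundant transcript in every culture. Cd79b stood at 0.142 ± 0.0285 of the Cd79a level in WT and at 0.348 ± 0.0589 in PGRN KO, without overlap. Both genes were chosen by their WT and PGRN KO values, so this ratio was not tested. Cd79b lies 3.87 Mb from Grn on chromosome 11, and it is the member of the set on the chromosome of the targeted gene.

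Vpreb3 encodes a chain related to the surrogate light chain, which is used while B cell precursors test a new heavy chain. Vpreb3 (ENSMUSG00000000903, chr10:75943057-75949657, plus strand) was listed at 0 in all 3 WT cultures and at 0.261, 0.256 and 0.178 FPKM in PGRN KO. These PGRN KO values came from 4, 4 and 3 fragments. Set against a floor of 3 fragments over the WT group, equal to 0.0688 FPKM, the PGRN KO level had a ratio of 3.35. That ratio takes the 11 PGRN KO fragments as exact, so it is not a firm lower bound. Among the surrogate light chain genes, Vpreb1 had 0 fragments in WT and 2 in PGRN KO, and Igll1 had 1 and 0. Blnk encodes the adaptor that links the kinase Syk to the signal of the B cell receptor. Blnk (ENSMUSG00000061132, chr19:40928927-40994535, minus strand) was at 0.256, 0.140 and 0.175 FPKM in WT and at 0.374, 0.414 and 0.459 in PGRN KO. The groups did not overlap, with means of 0.190 ± 0.0591 and 0.415 ± 0.0423 FPKM from 58 and 139 fragments.

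Fcrla encodes an intracellular Fc receptor-like protein of B cells. Fcrla (ENSMUSG00000038421, chr1:170917576-170927583, minus strand) was at 0.0337, 0.309 and 0.134 FPKM in WT and at 0.225, 0.189 and 0.233 in PGRN KO. The highest and the lowest of the 6 values were both WT cultures, and the means of 0.159 ± 0.139 and 0.216 ± 0.0233 FPKM rest on 14 and 21 fragments. Without WT culture 1 the difference in mean log2(FPKM + 1) was -0.0033 in place of 0.076. The Fcrla values are uncertain for a further reason, because the pseudogene Gm2962 overlaps the gene on the same strand, with 2.52 FPKM in WT and at 2.48 in PGRN KO.

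Jchain encodes the joining chain that links IgM and IgA monomers into polymers and is made in antibody-secreting cells. Jchain (ENSMUSG00000067149, chr5:88519809-88527891, minus strand) was at 22.2, 22.5 and 21.4 FPKM in WT and at 63.0, 75.8 and 77.2 in PGRN KO. It held 84.8% of the summed FPKM of the 10 genes in WT and 84.9% in PGRN KO, so that its share hardly differed. The means were 22.0 ± 0.563 and 72.0 ± 7.83 FPKM from 2813 and 10117 fragments, which makes it the best measured of the set. Mzb1 encodes an endoplasmic reticulum cochaperone that takes part in antibody assembly. Mzb1 (ENSMUSG00000024353, chromosome 18) was at 0.846, 1.19 and 1.10 FPKM in WT and at 4.77, 5.48 and 4.61 in PGRN KO. The lowest PGRN KO culture was 3.87 times the highest WT culture, and the group totals were 48 and 249 fragments.

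Pou2af1 encodes the coactivator of octamer-binding factors in B cells, and it is needed for germinal centres. Pou2af1 (ENSMUSG00000032053, chr9:51213708-51240080, plus strand) was at 0.139, 0.306 and 0.206 FPKM in WT and at 1.14, 1.38 and 1.30 in PGRN KO. The groups lay far apart, at 0.217 ± 0.0841 and 1.27 ± 0.121 FPKM, from 28 and 181 fragments. Derl3 encodes a derlin of the pathway that removes misfolded proteins from the endoplasmic reticulum. Derl3 (ENSMUSG00000009092, chr10:75893413-75895941, plus strand) was at 0.118, 0.241 and 0.205 FPKM in WT and at 1.07, 0.663 and 1.02 in PGRN KO. The second PGRN KO culture was the lowest of its group and was still 2.76 times the highest WT culture, with 19 and 102 fragments in the groups.

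Tnfrsf17 encodes BCMA, the receptor through which plasma cells take up survival signals. Tnfrsf17 (ENSMUSG00000022496, chr16:11313812-11320074, plus strand) was listed at 0 in all 3 WT cultures and at 0.412, 0.135 and 0.250 FPKM in PGRN KO, from 6, 2 and 4 fragments. The spread within PGRN KO was wide, in a gene counted in single fragments, and no value overlapped with WT. Against a floor of 3 fragments over the WT group, equal to 0.0725 FPKM, the PGRN KO level had a ratio of 3.65. That ratio takes the 12 PGRN KO fragments as exact, so it is not a firm lower bound.

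In WT the order of mean FPKM was Jchain, Cd79a, Mzb1, Cd79b, Pou2af1, Blnk, Derl3 and Fcrla, with Vpreb3 and Tnfrsf17 listed at 0. The first 3 did not overlap with their neighbours in that order, whereas from Cd79b to Fcrla each gene overlapped with the next. In PGRN KO Mzb1 stood above Cd79a, at 4.95 ± 0.462 against 3.37 ± 0.431 FPKM, without overlap. Pou2af1, Cd79b and Derl3 then overlapped in turn around 1 FPKM, and Blnk, Tnfrsf17, Vpreb3 and Fcrla overlapped in turn below them. The 5 B lineage genes summed to 2.51 ± 0.796 FPKM in WT and to 5.42 ± 0.704 in PGRN KO, a ratio of 2.16. The 5 plasma cell genes summed to 23.5 ± 0.688 and 79.4 ± 7.82 FPKM, a ratio of 3.39. Pou2af1, which also acts in B cells, was counted among these 5, and the split into the 2 groups was not tested. Without Jchain the other 4 summed to 1.45 ± 0.322 and 7.41 ± 0.240 FPKM, a ratio of 5.11. Within WT, culture 2 was the highest in 7 of the 8 genes detected there, whereas no PGRN KO culture led its group in more than 4 of the 10.

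The nearest annotated neighbours were examined to see whether whole regions moved, but most were too low to show it. Of 20 neighbours, 1 on each side of each gene, 13 had at most 9 fragments in each group. Of the 20, 7 were at 0 in all libraries. The filter was passed by 8, of which Mir1945 had 1 fragment, in PGRN KO. Only Rps19, a ribosomal protein gene beside Cd79a, was higher in PGRN KO (log2 fold change 0.36, adjusted p = 0.0191), beside 7.94% of all genes tested. That call was lost without any of 4 of the 6 cultures. Derl3 and Vpreb3 lie 47.1 kb apart on chromosome 10. Smarcb1, which lies 827 bp from Derl3 on the other strand, was at 2.57 ± 0.286 FPKM in WT and at 2.75 ± 0.113 in PGRN KO and did not pass the test (adjusted p = 0.572). The library kit does not mark strand, so reads of closely spaced genes on opposite strands are not told apart by orientation.

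Several of the genes that define a B cell were at or near 0 in both genotypes, and others were counted. Pax5, the factor that commits cells to the B lineage, had 0 fragments in all 6 libraries, and Ebf1, the factor acting before it, had 1 in WT and 3 in PGRN KO. Ms4a1, which encodes the surface protein CD20, had 3 fragments in WT and 1 in PGRN KO. Cd22, an inhibitory receptor of B cells, had 53 and 39 fragments and did not pass the test (adjusted p = 0.443). Cd79a, with 139 and 274 fragments, was counted above Pax5, Ebf1, Ms4a1 and Cd22 in both genotypes. Other B cell surface genes had more fragments than Cd22, among them Fcrl1 (273 in WT and 255 in PGRN KO), Cd72 (107 and 51) and Cxcr5 (85 and 123). Among the plasma cell markers, Sdc1 (CD138) was at 20.2 ± 0.754 FPKM in WT and at 20.5 ± 0.272 in PGRN KO and did not pass the test (adjusted p = 0.815). Irf4, a factor of plasma cell differentiation, was at 0.189 ± 0.0354 and 0.257 ± 0.108 FPKM and did not pass the test (adjusted p = 0.575). Xbp1, the factor of the secretory program, was at 47.9 ± 2.53 and 53.8 ± 0.874 FPKM, and the log2 fold change was 0.16 (adjusted p = 0.0651). With FPKM rescaled to plain totals of fragments, Xbp1 passed the test (log2 fold change 0.28, adjusted p = 0.011). Prdm1, which encodes Blimp-1, was lower in PGRN KO, at 2.39 ± 0.237 against 1.65 ± 0.236 FPKM (log2 fold change -0.36, adjusted p = 0.0415), and this call was lost in 7 of 15 alternative fits, plain totals among them. Neutrophils also express several of these genes, and which cells the fragments came from was not tested.

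**Figure D2:**
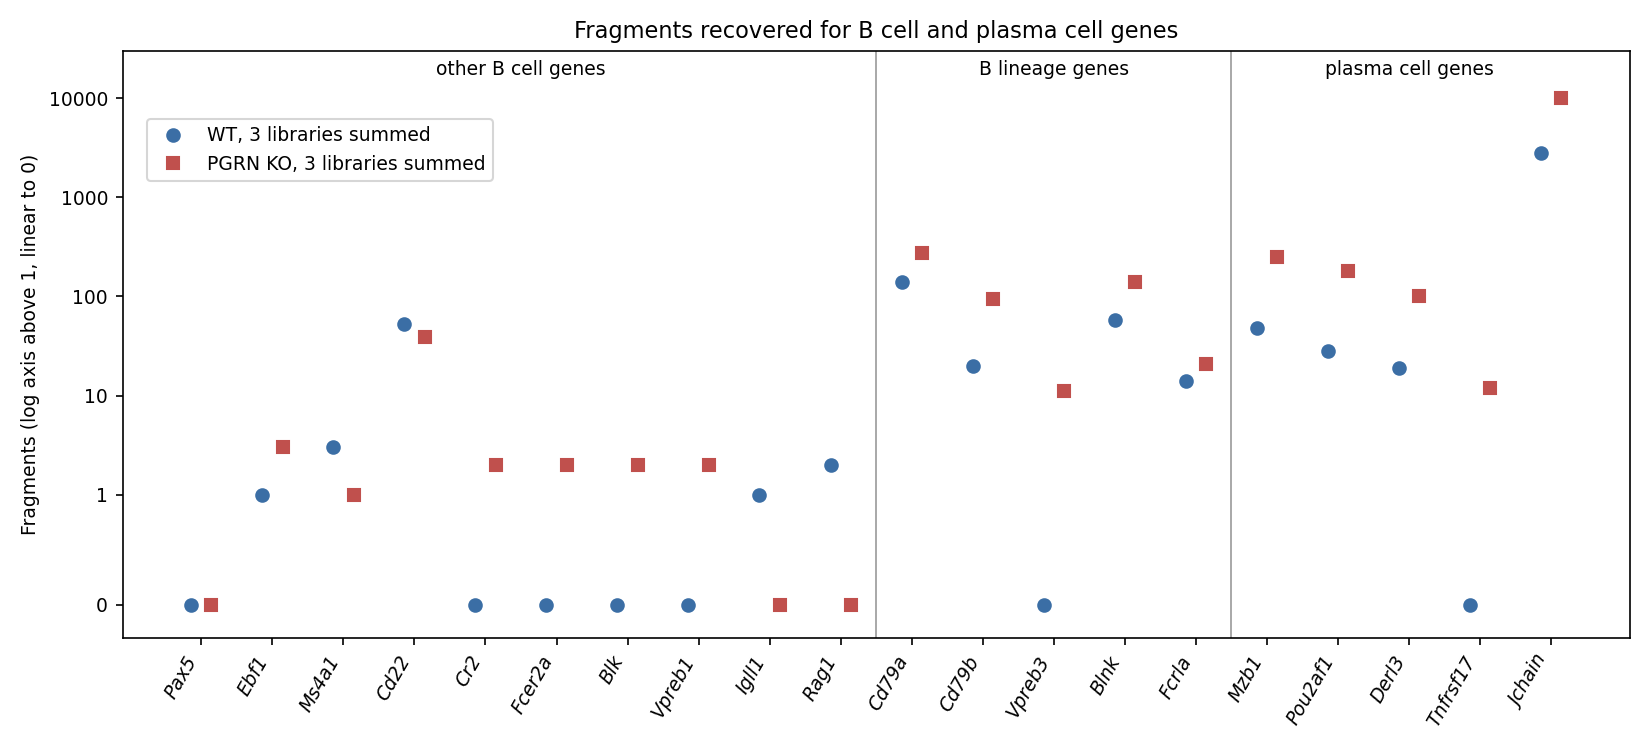
Fragments summed over the 3 WT libraries (blue circles) and the 3 PGRN KO libraries (red squares) for 10 other B cell genes and for the 10 genes described; the vertical axis is logarithmic above 1 and linear to 0. Of the other B cell genes shown, only Cd22, with 53 and 39, passed 3 fragments in a group, whereas Jchain reached 10117. The other B cell genes are a selection, and some that are not shown, such as Fcrl1, Cd72 and Cxcr5, had more fragments than Cd22.

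Other genes of the B lineage and plasma cell pathway were read from 6 lists, which hold none of the 10 genes. Of 89 such genes tested, 9 (10.1%) rose and 27 (30.3%) fell in PGRN KO, compared with 7.94% and 9.95% of all genes tested. Their median log2 fold change was -0.048, beside 0.0026 over all genes tested. The lists hold many genes that myeloid cells also use, so their counts do not speak for B lineage cells alone. The split depended on scaling, with 13 higher and 20 lower under plain totals of fragments, 16 and 19 under totals without immunoglobulin genes, and 23 and 25 with limma voom on the recovered fragments.

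Among 8 B lineage transcription factors tested, Irf8 fell (log2 fold change -0.39, adjusted p = 0.0108) and the other 7 did not pass the test. None rose in the limma fit. At an unadjusted p under 0.05 none was higher and 2 were lower, and with voom 1 was higher and 2 were lower. The most abundant of the list was Spi1, which encodes PU.1, at 193 ± 13.2 FPKM in WT and at 171 ± 14.3 in PGRN KO. Of 4 early B cell genes tested, the transcription factor gene Myb rose, from 2.10 ± 0.0555 to 3.10 ± 0.104 FPKM. Il7r, Cd93 and Bst1 fell, with log2 fold changes of -0.70, -0.67 and -0.36. Il7r encodes the interleukin-7 receptor chain on which mouse B cell precursors depend, and Cd93 and Bst1 are also expressed in myeloid cells. Which cells the Il7r fragments, 2420 in WT and 1546 in PGRN KO, came from was not tested. Rag2, Vpreb2 and Dntt were listed at 0 in all libraries.

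Of 14 B cell surface genes tested, the tetraspanin genes Cd37 and Cd81 rose, with log2 fold changes of 0.28 and 0.34. Cd40, Ccr7, Cd180 and Cd200 fell, with log2 fold changes of -1.06, -1.06, -0.88 and -0.54. CD40 receives help from T cells and CCR7 directs cells to lymph nodes, and both are also found on activated myeloid cells. The most abundant was Cd24a, at 420 ± 18.6 and 413 ± 29.6 FPKM, and the BAFF receptor gene Tnfrsf13c, at 0.125 ± 0.0433 and 0.202 ± 0.0579 FPKM, did not pass the test (adjusted p = 0.398). Of 20 B cell receptor signalling genes tested, 8 fell and 1 rose. Malt1, Pik3ap1 and Vav1 had the largest decreases, with log2 fold changes of -0.73, -0.64 and -0.43. The increase of Dapp1, from 8.04 ± 0.442 to 9.50 ± 0.359 FPKM (adjusted p = 0.046), was lost without any single culture. The phosphatase gene Ptpn6 was the most abundant, at 302 ± 4.30 and 282 ± 10.5 FPKM.

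Of 15 plasma cell regulators and receptors tested, 1 rose and 6 fell. Tnfrsf13b, which encodes TACI, a receptor for the same ligands as BCMA, rose from 3.95 ± 0.426 FPKM in WT to 6.53 ± 0.300 in PGRN KO (log2 fold change 0.61, adjusted p = 0.0037). Tent5c, Slamf7 and Itga4 fell, with log2 fold changes of -0.65, -0.62 and -0.54. The most abundant gene of the list, the tetraspanin gene Cd9, was at 821 ± 53.1 and 667 ± 43.0 FPKM (log2 fold change -0.30, adjusted p = 0.0265), and its call was lost under plain totals and without any of 4 of the 6 cultures. Of 30 antibody folding and secretion genes tested, 4 rose and 5 fell. Sec11c, Sec61b and Ssr4, which encode parts of the signal peptidase, of the translocon and of the complex beside it, had log2 fold changes of 0.52, 0.43 and 0.36. The chaperone genes Dnajb9 and Hspa5 and the translocon gene Sec61a1 had log2 fold changes of -0.44, -0.37 and -0.24. The call of Sec11c was lost without any of 5 of the 6 cultures, and that of Sec61a1 without any of 4 of the 6 and under plain totals. With voom on the recovered fragments, which changed the scaling as well as the model, 13 genes of this list rose and 2 fell.

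**Figure D3:**
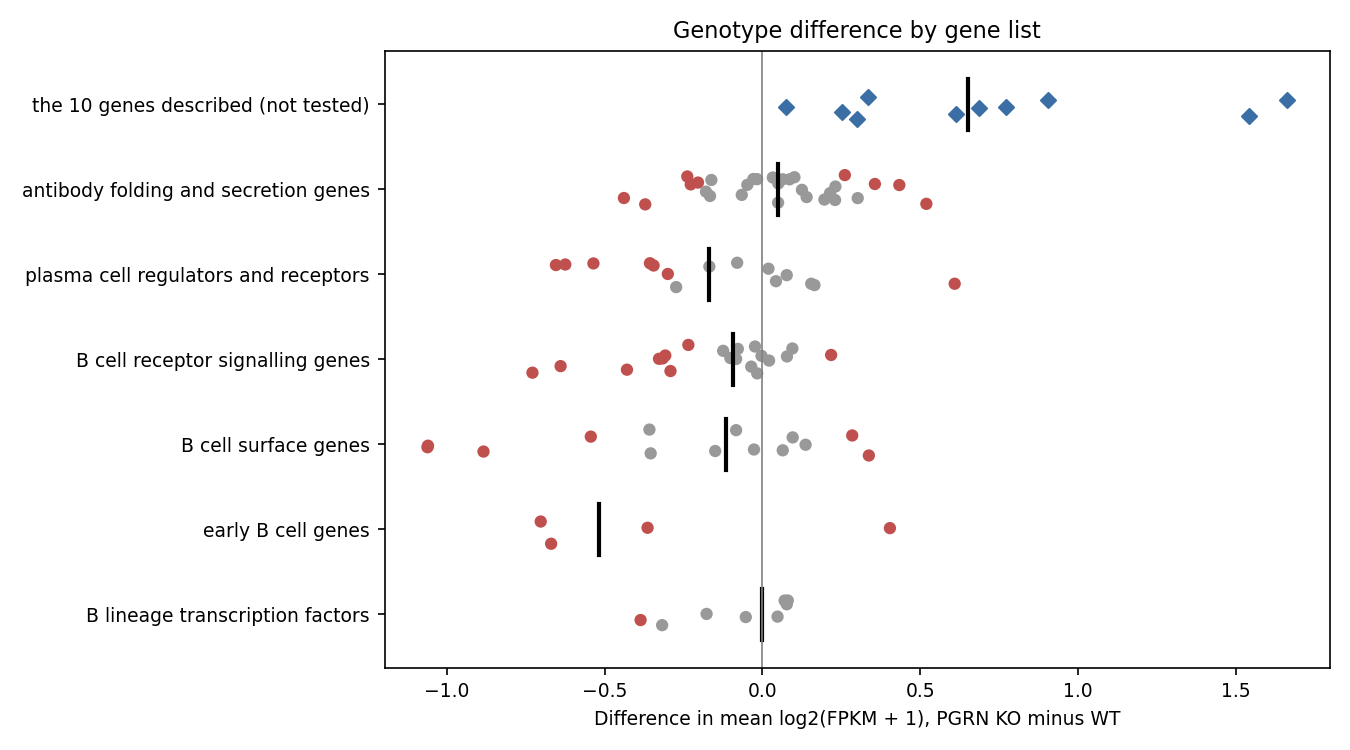
Difference in mean log2(FPKM + 1), PGRN KO minus WT, for each gene tested in the 6 lists (red where the adjusted p was under 0.05, grey otherwise) and for the 10 genes described (blue diamonds, not tested); black bars are medians and points are spread vertically for legibility. The 10 genes, which were chosen by their values, lie between 0.076 and 1.66, and the list medians lie between -0.52 and 0.050. Single genes of the lists run from -1.06 for Cd40 to 0.61 for Tnfrsf13b, so some lie within the range of the 10.

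Since Jchain joins antibody chains, its level was set beside the immunoglobulin constant genes. Of 11 constant genes tested, 6 rose and 1 fell in PGRN KO, and together they summed to 624 to 682 FPKM in WT and to 3087 to 3536 in PGRN KO. The IgG genes Ighg1, Ighg2c and Ighg2b had the largest log2 fold changes, 4.29, 3.87 and 2.57. Igkc, the kappa light chain gene, rose from 415 ± 6.81 to 2224 ± 140 FPKM, Igha from 113 ± 9.06 to 268 ± 15.1 and Iglc3 from 1.40 ± 0.290 to 2.54 ± 0.301. The call of Iglc3 was lost without any of 3 of the 6 cultures and with voom. Ighm, the heavy chain gene of IgM, fell from 17.5 ± 1.21 to 7.18 ± 1.42 FPKM (log2 fold change -1.19, adjusted p = 0.00219). Iglc1, Iglc2, Ighg3 and Ighe did not pass the test, and Ighd and Iglc4 were listed at 0 in all libraries. Ighe had 1 fragment in WT and 33 in PGRN KO, and every PGRN KO value was above every WT value. Iglc2 was lower in every PGRN KO culture, and Iglc1 and Ighg3 overlapped. The lambda constant genes are near-identical copies and the IgG genes are similar to each other, so how fragments were divided among them is uncertain.

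Jchain differed less between the genotypes than Igkc did, and more than Igha did. Per FPKM of Igkc there were 0.0531 ± 0.00055 FPKM of Jchain in WT and 0.0323 ± 0.00215 in PGRN KO. Per FPKM of Igha the values were 0.195 ± 0.0135 and 0.269 ± 0.0281, and per FPKM of Ighm they were 1.26 ± 0.0701 and 10.2 ± 1.01. None of these ratios overlapped between the genotypes, and none was tested, since Jchain was chosen by its WT and PGRN KO values. Mzb1 stood at 0.0475 ± 0.00812 of Jchain in WT and 0.0692 ± 0.00842 in PGRN KO, and Cd79a at 0.0853 ± 0.0247 and 0.0468 ± 0.00183.

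**Figure D4:**
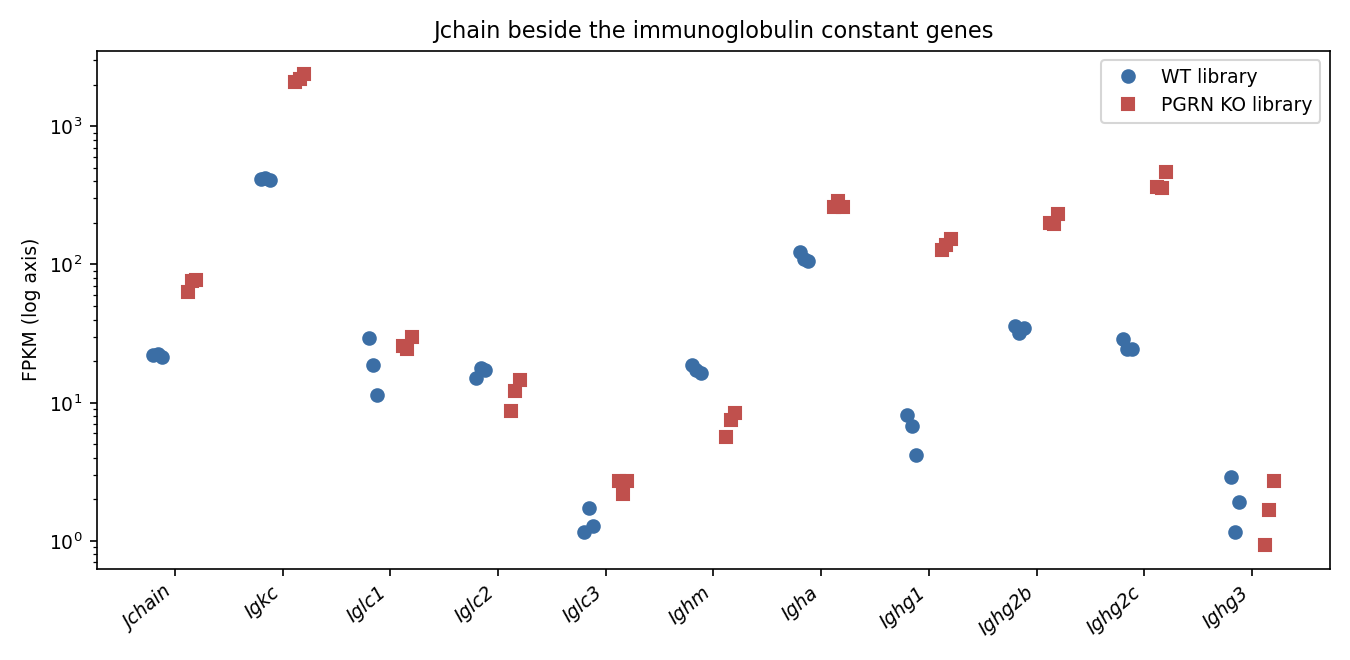
FPKM on a logarithmic axis of Jchain and 10 immunoglobulin constant genes in each WT library (blue circles) and each PGRN KO library (red squares). The PGRN KO points lie above the WT points for Jchain, Igkc, Igha, Iglc3 and 3 of the IgG genes, and below them for Ighm and Iglc2, of which Iglc2 did not pass the test.

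Markers of other cell types were counted in the same libraries, since magnetic selection can leave other cells. Of the T cell markers 4 were tested and none was called by limma, at an unadjusted p under 0.05 or with voom, with Cd3e, Cd3g and Cd8b1 at 0 and a sum of 1.28 to 2.44 FPKM in WT and of 1.66 to 1.82 in PGRN KO. The 1 NK cell marker tested was not called by any of the 3 either, and the list summed to 0.0460 to 0.230 and 0.220 to 0.255 FPKM, with Eomes at 0. Of 8 basophil and mast cell markers 5 rose and none fell, among them Prss34, from 1.42 ± 0.209 to 6.76 ± 0.971 FPKM, and Mcpt8, from 0.512 ± 0.176 to 3.39 ± 0.239. The sum of that list was 143.54 to 163.45 FPKM in WT and 163.39 to 171.24 in PGRN KO, so the groups overlapped. Most of that sum was Hdc, at 152 ± 10.9 and 153 ± 4.68 FPKM, which was not called. Of 5 eosinophil markers 3 rose and 1 fell (10.8 to 12.6 and 12.1 to 15.6 FPKM), and Ear6, the gene that fell, was the largest part of the sum. Of 5 erythroid markers 4 rose (2.71 to 4.87 and 8.004 to 8.77 FPKM), and of 2 platelet markers Pf4 rose (0.458 to 0.768 and 1.21 to 1.55 FPKM), with Gp1bb at 0. The called markers of basophils and mast cells, red cells and platelets (Pf4 alone) were thus all higher in PGRN KO. In the eosinophil, monocyte, stromal and neutrophil lists the calls went both ways. Of all genes tested, 7.94% were higher and 9.95% lower. The 10 genes were also higher by their means, which follows from how they were chosen. Prss34 and Mcpt8 kept their calls in all 15 alternative fits, whereas each of the 4 erythroid calls was lost without at least 1 culture and that of Pf4 without WT culture 2 or PGRN KO culture 5. Of 6 plasmacytoid dendritic cell markers 2 rose, Lair1 and Ly6d, with Klk1 at 0 (229 to 245 and 241 to 274 FPKM, mostly Bst2, which was not called). The call of Ly6d was lost without any of 4 of the 6 cultures. Of 9 monocyte and macrophage markers 1 rose and 3 fell (1006 to 1072 and 914 to 1083 FPKM), and of 5 stromal and endothelial markers 1 rose and 4 fell (13.1 to 14.4 and 8.06 to 8.52 FPKM). Of 14 neutrophil markers 2 rose and 2 fell. Of 15 cell cycle genes 10 rose and none fell (254 to 260 and 309 to 323 FPKM). In the lists of basophil and mast cell, erythroid, platelet, plasmacytoid dendritic cell and cell cycle genes, where limma called none lower, none was lower at an unadjusted p under 0.05 or with voom either. The part of these cells in the values of the 10 genes was not tested.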

How the data were processed

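RNA was sequenced from 3 WT and 3 PGRN KO neutrophil cultures with poly-A selection, a kit that does not mark strand, and paired-end reads. The authors deposited 1 table of FPKM values per gene. The submitters' processing notes name HISAT2 2.0.5, featureCounts 1.5.0-p3, DESeq2 1.20.0 and the mm10/GRCm38 build, whereas the study's methods name other versions and another counter, so the counter is uncertain. No per-library read counts were used from elsewhere. Multiplied by gene length, the deposited FPKM values were whole multiples of 1 fragment in every library, which gave fragments per gene. The library sizes behind the FPKM were 16679058 to 17126452 fragments in WT and 17848820 to 19656980 in PGRN KO, so the authors' scaling was not plain totals on genes. These depths cover counting error only, and fragments of amplified libraries are not independent molecules.

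Genes with a mean of at least 0.1 FPKM over the 6 libraries were tested on log2(FPKM + 1) with limma 3.58.1 (R 4.3.3; lmFit and eBayes with trend, two-sided), with Benjamini-Hochberg adjustment over all 14807 genes and a threshold of 0.05. A pseudocount of 1 understates the change of low genes. Of all genes tested, 1175 were higher and 1473 lower in PGRN KO. An exact permutation test of 3 against 3 cannot go below p = 0.10, so none was used. The 10 genes and all lists were chosen with earlier results of these data known. The genes named were the 10, Grn, the called genes of each list (for lists with more than 6, up to the 3 largest changes in each direction), the most abundant gene of each pathway list, fixed lineage markers, the immunoglobulin constant genes, the nearest neighbours and the 5 genes of most similar profile; of the lists of other cell types only examples are named. One marker of the fixed set is not reported here. The lists were B lineage transcription factors, early B cell genes, B cell surface genes, B cell receptor signalling genes, plasma cell regulators and receptors, antibody folding and secretion genes, immunoglobulin constant genes, and markers of other cells. Promoter windows of 300 bases (250 before and 50 after the start) came from RefSeq. The fit was tested on simulated data. Alternatives were other pseudocounts and filters, other scalings, limma voom, and leaving out each library. Tables were handled with Python 3.11.15 and pandas 2.3.3.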

Additional observations from a re-analysis of the deposited data

How the results depend on the processing

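No paired analysis was possible because the WT and PGRN KO cultures share no replicate number. Of the 10 genes, 9 had every PGRN KO value above every WT value also under plain totals and totals without immunoglobulin genes. Leaving out a culture cannot make separated groups overlap. It could change only Fcrla, whose groups no longer overlapped without WT culture 2. The single sign change was that of Fcrla, whose log2 difference ran from -0.0033 without WT culture 1 to 0.17 without WT culture 2. Across all genes, 1175 were higher and 1473 lower (44.4% of calls higher); under plain totals the counts were 2147 and 933 (69.7%), under totals without immunoglobulin genes 2201 and 920 (70.5%), and with voom 2984 and 1252 (70.4%). These settings raised the median of all genes by 0.081, 0.085 and 0.12 on the log2 scale. Leaving out each culture gave 581 to 947 higher and 804 to 1282 lower, lowest without PGRN KO culture 5. The higher count moved by over 1.5 times without any WT culture or PGRN KO culture 5, and the lower count without WT culture 2 or PGRN KO culture 5; fewer samples enter each of these fits. Of the pathway genes, 9 were higher and 27 lower (25% higher); totals without immunoglobulin genes gave 16 higher, voom 23, and leaving out each culture 6 to 9 higher and 20 to 27 lower. The cause of the other shifts was not tested. Of the 36 pathway genes called, 25 kept their call in all 15 alternatives and 11 lost it in at least 1, and none changed direction. With 0 to 30 fragments per group, Vpreb3, Tnfrsf17, Fcrla, Cd79b, Derl3 and Pou2af1 in WT are limited by depth. So are Vpreb3, Tnfrsf17 and Fcrla in PGRN KO, with 11, 12 and 21 fragments.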

Other observations

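The 5 genes outside the set and the immunoglobulin loci whose log2(FPKM + 1) over the 6 libraries was most like the mean profile of the 10 genes were Tuba8, Tbc1d31, C2cd5, Ash2l and Pank2. Pearson's r was between 0.995 and 0.997 among 9076 genes with a mean of at least 1 FPKM, given as a description over 6 libraries that fall into 2 genotypes. Tuba8, an alpha tubulin gene, was at 6.81 ± 0.416 FPKM in the WT cultures and at 9.65 ± 0.206 in the PGRN KO cultures. These genes were chosen for likeness to genes that were themselves selected on the WT and PGRN KO values, so no test of the genotype difference is given for them.

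Of the antibody receptors and class switching genes, Pigr and Fcamr were listed at 0 in all libraries, and the 1 gene tested was not called by limma, at an unadjusted p under 0.05 or with voom. Immunoglobulin genes took 0.0891% to 0.101% of the fragments on genes in WT and 0.424% to 0.479% in PGRN KO.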
